A study of Mus musculus with 11 samples.

Results

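The regions described here are Smc1a sites of thymocytes that lie far from chromatin acetylated on lysine 27 of histone H3 (H3K27ac). A site was kept if it had a peak in both Smc1a libraries, overlapped no peak of any of the 4 H3K27ac libraries, and lay more than 100 kb from the nearest H3K27ac region called in both wild-type (WT) libraries. Of 14480 such reproducible Smc1a sites on the 19 autosomes (14848 on all chromosomes), 1953 (13.5%) met this rule and are called deep sites below. The members were chosen by the Smc1a and H3K27ac peak calls themselves, so their distance from acetylation and their lack of overlap are not findings.

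The cells were CD4+ CD8+ thymocytes, the double positive stage of T cell development, sorted from mice aged 6 weeks. The knockout (KO) group was Rad21-/-, made with a floxed Rad21 allele and a Cre transgene driven by Cd4, and its littermate controls are labelled wild type. H3K27ac was mapped in 2 KO and 2 WT libraries, and Smc1a in 2 libraries of WT cells alone, so nothing here measures Smc1a after the deletion. The labels say neither whether the controls carried the floxed allele or Cre, nor whether libraries came from separate mice, so spread between libraries may be technical. The cell identity was not checked against marker genes here, because no gene annotation of mm9, the build of the peak lists, was used.

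Smc1a is a subunit of cohesin, the ring that holds sister chromatids together and, in interphase, extrudes loops of chromatin. Rad21 closes that ring. In mammalian cells loop extrusion is halted mainly where CTCF is bound, so cohesin peaks gather at CTCF sites as well as at active promoters and enhancers. H3K27ac marks active promoters and enhancers. Deep sites are therefore cohesin positions with no H3K27ac region called in both WT libraries within 100 kb. Other marks of active elements were not examined here.

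The H3K27ac lists held 19503 peaks (KO replicate 1), 20244 (KO replicate 2), 21973 (WT replicate 1) and 15686 (WT replicate 2). The Smc1a lists held 25484 and 17726 peaks. WT replicate 2 had the shortest H3K27ac list, and values without this library are given below where they were computed and differ by more than 1.5 times. The lists hold no reads, so the depth of the libraries is unknown, and a missing peak is a missing call. Intervals on shares and densities are 95% intervals that cover counting error only.

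Deep sites were few for the size of the territory open to them. The territory over 100 kb from WT acetylation made up 62.3% of the autosomal sequence between the first and last WT region of each chromosome, 1492 Mb, and held 13.8% of the Smc1a sites there. Counted by their midpoints and with the few sites that overlap a peak included, Smc1a sites numbered 1.34 per Mb in it (1.28 to 1.40). Between 10 and 100 kb from acetylation the density was 10.1 per Mb (9.84 to 10.3), within 10 kb it was 13.8 per Mb, and inside WT acetylated regions it was 66.1 per Mb. Each Smc1a list alone gave the same order, with 2.50 peaks per Mb of the far territory in replicate 1 and 1.66 in replicate 2, against 17.2 and 11.2 between 10 and 100 kb. With WT replicate 1 alone setting the distance, that is without WT replicate 2, the far territory held 0.882 sites per Mb, and without Smc1a replicate 2 it held 2.50.

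The decline went on within the far territory. There were 4.46 sites per Mb (4.15 to 4.78) at 100 to 150 kb from acetylation and 3.08 (2.79 to 3.40) at 150 to 200 kb. The density was 1.94 per Mb at 200 to 300 kb, 0.990 at 300 to 500 kb and 0.375 at 500 to 1000 kb. Over 1000 kb away, 37 sites lay in 379 Mb, or 0.0976 per Mb (0.0687 to 0.134). No interval of neighbouring distance classes overlapped from 25 kb outward. Unmappable sequence was not removed from the territory, and its part in this decline was not tested.

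**Figure D1:**
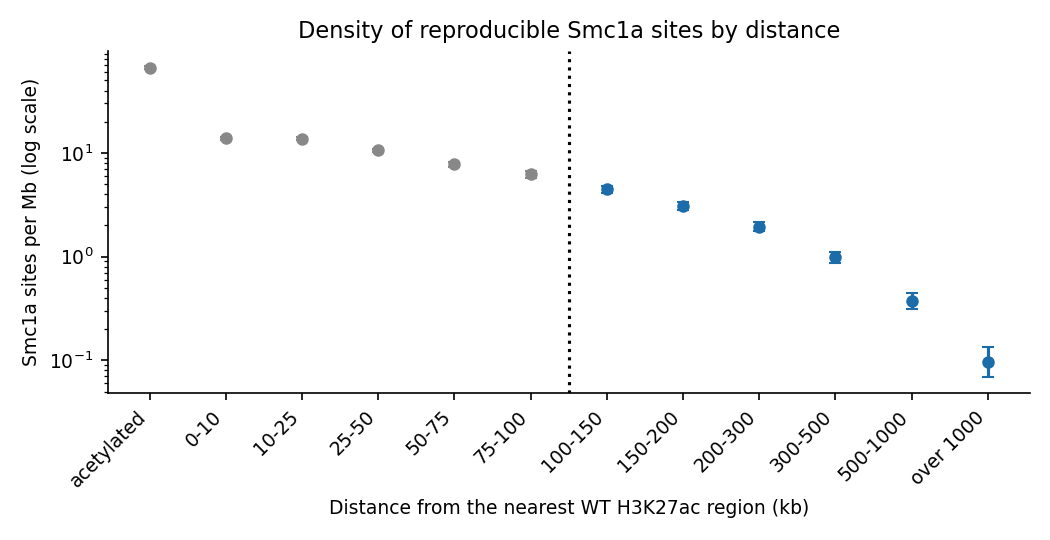
Reproducible Smc1a sites per Mb of territory (vertical axis, log scale) by distance of the site midpoint from the nearest H3K27ac region called in both WT libraries (horizontal axis, kb). Points are the density over 19 autosomes, bars are exact Poisson 95% intervals, and blue points right of the dotted line are over 100 kb away, where the density fell to 0.0976 per Mb over 1000 kb.

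Most deep sites lay within 500 kb of acetylation. The median distance to a WT region was 171 kb, with quartiles of 127 and 268 kb. Only 164 sites (8.40%) were more than 500 kb away, 36 (1.84%) more than 1000 kb and 5 more than 2000 kb. Close to the limit, the first sites kept were chr1:91087853-91088611 at 100023 bp, chr14:105796357-105797220 at 100075 bp and chr3:144025400-144025983 at 100089 bp. The last sites left out were chr1:136750706-136751457 at 99872 bp, chr8:96723155-96723964 at 99852 bp and chr13:32995042-32995702 at 99833 bp. These neighbours of the limit had Smc1a scores of 139.79, 893.64 and 234.07 inside it and 233.65, 359.79 and 290.99 outside it in replicate 1. A further 50 sites were over 100 kb from WT acetylation but overlapped an H3K27ac peak of some library, 30 of them one of KO replicate 1, 37 of KO replicate 2, 25 of WT replicate 1 and 3 of WT replicate 2.

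Every autosome held deep sites, from 42 on chromosome 19 to 154 on chromosome 2. They were 9.63% of the Smc1a sites of chromosome 19 and 9.71% of those of chromosome 11, against 19.5% of those of chromosome 13, with a median of 13.5% over the 19 autosomes. Per Mb of far territory the order was different. Chromosome 13 had 1.96 deep sites per Mb and chromosome 11 had 1.94, while chromosome 14 had 0.890.

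The 5 sites farthest from WT acetylation were isolated in the Smc1a maps as well. The farthest, chr15:18751094-18751558, was 6404226 bp from a WT region and 6025417 bp from the next reproducible Smc1a site. It had scores of 82.07 and 154.56 in the Smc1a lists of replicates 1 and 2. A peak of KO replicate 1 lay 1226 bp from it, while the nearest peak of the other 3 H3K27ac libraries was more than 5 Mb away, at 5995846 bp in KO replicate 2, 5995676 bp in WT replicate 1 and 6404312 bp in WT replicate 2. This neighbouring acetylation was thus a call of a single library.

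The second, chr5:15815290-15815838, lay 3988522 bp from a WT region, with scores of 121.49 and 93.96. Of the 4 H3K27ac lists, 3 nevertheless had a peak at about the same distance from it, 159520 bp in KO replicate 1, 159511 bp in KO replicate 2 and 159596 bp in WT replicate 1, and WT replicate 2 had none within 3772030 bp. The same held at chr7:63297652-63298286, with scores of 109.18 and 132.48. There KO replicate 1 had a peak at 6392 bp, KO replicate 2 at 6301 bp and WT replicate 1 at 6472 bp, and the nearest peak of WT replicate 2 was 2355305 bp away. At both sites the stated distance from WT acetylation rested on the list of WT replicate 2.

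The other far sites were chr16:27457380-27457789 and chr14:37846290-37847004. The first had scores of 179.51 and 70.60, and no H3K27ac peak within 874754 bp in any list. The second had scores of 252.78 and 137.62, and peaks of KO replicate 2, WT replicate 1 and WT replicate 2 at 64319, 63638 and 79279 bp. The WT peaks were separate ones, so they formed no region called in both WT libraries.

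Deep sites had lower Smc1a peak scores than Smc1a sites in general, in both lists. The score is the authors' value from their peak caller and is compared within a list only. In replicate 1 the median score of deep sites was 219 (quartiles 127 and 386), against 311 for sites 10 to 100 kb from acetylation, 339 for sites within 10 kb and 271 for all 14480 sites. In replicate 2 the median of deep sites was 118 (76.1 and 204), against 138, 152 and 137 for the same classes. As percentiles of the whole list, deep sites had a median of 62.0 in replicate 1 and 50.6 in replicate 2, against 68.4 and 57.1 for all sites. The scores of the classes overlapped widely, and no test was run over the 2 libraries, which are of 1 group.

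The lists disagreed on one point. In replicate 1 the deep sites stood above the sites inside WT acetylated regions, with medians of 219 and 178. In replicate 2 they stood below them, with medians of 118 and 140. The order of deep sites and acetylated sites by score therefore depended on the library, while deep sites were below the 2 intermediate classes in both. Among deep sites the scores of the replicates had a Spearman correlation of 0.65 across 1953 sites, against 0.68 across all sites, and the lists share the cell type and genotype.

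**Figure D2:**
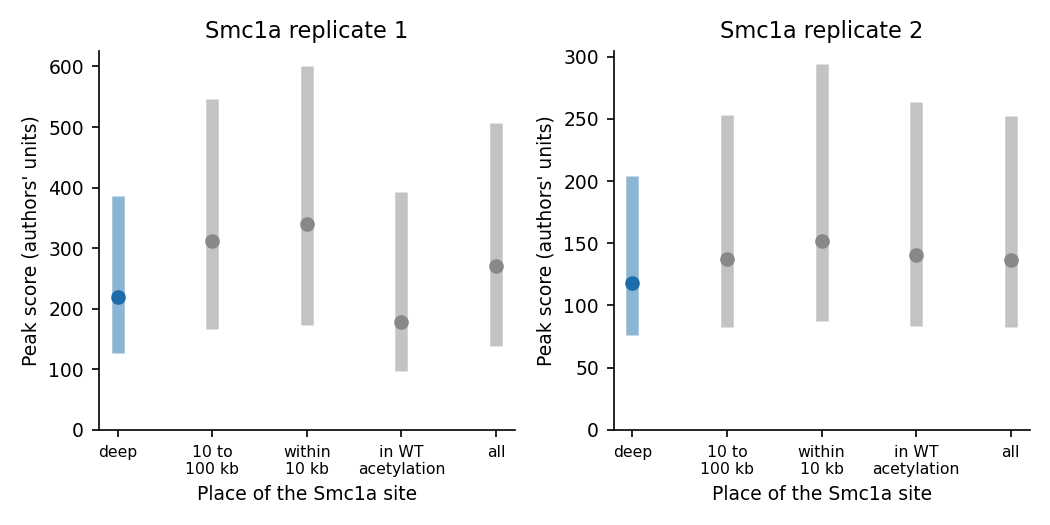
Smc1a peak scores (vertical axis, authors' units, from 0) in Smc1a replicate 1 (left) and replicate 2 (right) for deep sites, the 3 classes of site nearer to acetylation and all 14480 sites. Points are medians and bars run from the lower to the upper quartile over sites, with deep sites at 219 and 118.

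High scores were less frequent at deep sites than over all sites, but they occurred. Of the 1953, 598 (30.6%) were in the upper 25% of the replicate 1 list, against 40.6% of all sites, and 423 (21.7%) in that of replicate 2, against 29.7%. In the lowest 25% were 175 deep sites (8.96%) of replicate 1, against 9.48% of all sites, and 396 (20.3%) of replicate 2, against 17.6%. The difference from other sites thus lay more at the upper end of the scores than at the lower end.

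The 5 deep sites with the highest score percentiles over both lists were spread over chromosomes 16, 2 and 11. The site chr16:93453387-93455074 had scores of 1504.56 and 1175.45, was 1688 bp long and lay between 104362 and 104605 bp from a peak of each of the 4 H3K27ac libraries, just past the limit. The site chr2:14216774-14217516 had 1631.98 and 949.60. A KO replicate 2 peak lay 50091 bp from it, and the nearest peaks of the other lists 128905 to 129022 bp. For chr11:44821299-44822069, with 2220.73 and 842.81, all 4 libraries again placed the nearest acetylation at almost the same distance, 113642 to 113979 bp. Sites at separate places on chromosome 16 completed the set. The site chr16:25064371-25065209 had 1392.62 and 959.03 and another Smc1a site 2313 bp away. Peaks of KO replicates 1 and 2 lay 86608 and 4578 bp from it, and the nearest WT peaks 152254 and 153336 bp. The site chr16:90167438-90168693 had 1360.85 and 933.59. Peaks of KO replicate 1, KO replicate 2 and WT replicate 1 lay 28860, 22086 and 22363 bp from it, and one of WT replicate 2 106913 bp.

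Scores in replicate 1 were lower at deep sites that were farther away. The median was 245 for 773 sites at 100 to 150 kb, 228 for 397 sites at 150 to 200 kb and 209 for 362 sites at 200 to 300 kb. It was 189 for 257 sites at 300 to 500 kb, 172 for 128 sites at 500 to 1000 kb and 143 for 36 sites farther away. In replicate 2 the nearest class had a median of 125 and the others, in the same order, 112, 109.5, 118, 120 and 112, so past 150 kb there was no steady decline in that list. The median length of a site was 696 bp in the nearest class and 572 bp in the last.

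Deep sites were narrow. A merged deep site had a median length of 673 bp (quartiles 565 and 781), against 743 bp for sites 10 to 100 kb from acetylation, 1080 bp for sites in WT acetylated regions and 776 bp for all sites. Only 108 deep sites (5.53%) were longer than 1000 bp, against 16.1% of sites 10 to 100 kb from acetylation, 55.4% of the acetylated sites and 24.9% of all sites. Peak widths gave the same picture in each list, with medians of 606 and 583 bp at deep sites and 712 and 693 bp at all sites. Nearly all deep sites were single peaks, since 6 of them held more than 1 peak of a list. Nearly all Smc1a sites in general were single peaks too, so this trait was not particular to deep sites.

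Smc1a peaks of the far territory were somewhat less often shared by the replicates than Smc1a peaks in general. Of 3603 replicate 1 peaks that met the distance and overlap rule, 54.3% (52.7 to 55.9) overlapped a replicate 2 peak, against 58.6% of all peaks of that list. Of 2418 such replicate 2 peaks, 81.0% (79.4 to 82.5) overlapped a replicate 1 peak, against 84.3%. Peaks in WT acetylated regions were shared in 59.1% of cases in replicate 1 and in 74.6% (73.3 to 75.9) in replicate 2, so in replicate 2 the far peaks were above them. The 2 differences from all peaks averaged -3.82 points, and -6.69 points without WT replicate 2. The difference varied with the score of the peak, and the far peaks had more low scores. Of the far replicate 1 peaks, 1045 were in the lowest 25% of the list and 626 in the upper 25%, against 5193 and 5653 of the others. How much of the overall difference came from this mix of scores was not tested. In the lowest 25% of the replicate 1 list, 16.9% of the far peaks (14.8 to 19.3) were shared, against 24.1% of the others (22.9 to 25.3). Between the 25th and 50th percentile the share of far peaks was higher, 47.0% (44.0 to 50.1), against 44.6% (43.3 to 46.0). Between the 50th and 75th percentile it was 76.3% (73.4 to 78.9), against 71.8% (70.5 to 73.0), and in the upper 25% it was 95.5%, against 93.8%. In the replicate 2 list the lowest 25% of scores had 53.8%, against 60.7%. Between the 25th and 50th percentile of that list the share of far peaks was again higher, 86.1% (83.3 to 88.5), against 83.2% (81.9 to 84.3). Between the 50th and 75th percentile it was 96.39%, against 94.97%, and in the upper 25% it was 98.8%, against 99.0%.

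Deep sites were far apart from other cohesin sites. The median distance to the next reproducible Smc1a site, deep or not, was 64.4 kb, against 24.7 kb for sites 10 to 100 kb from acetylation and 19.6 kb for all sites. Without Smc1a replicate 2 it was 33.2 kb, and without Smc1a replicate 1 it was 58.9 kb. The members then came from a single list and numbered 3603 and 2418, and the cause of these shifts was not tested. Another site lay within 10 kb of 310 deep sites (15.9%), against 34.2% of all sites, and within 2 kb of 76 (3.89%), against 11.0%. At the other extreme, 27 deep sites had no other site within 1000 kb, out of 46 such sites on the autosomes. For 1180 deep sites (60.4%) the next site was itself deep, and for 73 (3.74%) it lay in a WT acetylated region. The rule keeps WT acetylated regions over 100 kb from every member, and 1231 members (63.0%) had their next site within 100 kb. These 2 shares therefore follow in part from the selection, and they were not counted for other sites. Smc1a sites in or beside WT acetylated regions cannot be close neighbours of a member. The wider spacing of deep sites thus also follows in part from the selection and is a description. Deep sites with a neighbour within 10 kb had median scores of 233 and 130, against 203 and 116 for those with none within 100 kb.

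Many long gaps between WT regions held no deep site. Between neighbouring WT regions there were 2105 gaps of more than 200 kb, of which 1013 held at least 1 deep site and 1092 (51.9%) held none. Since a WT region is one called in both WT libraries, a gap can hold peaks of a single WT list. The gaps were not recounted without WT replicate 2. A single site was found in 505 gaps, 2 sites in 275, 3 in 132, 4 in 55 and 5 or more in 46, which together held 274 sites. Of gaps of 200 to 300 kb, 22.1% (19.0 to 25.6) held a deep site, against 52.9% of gaps of 300 to 500 kb, 60.5% of those of 500 to 1000 kb and 63.0% (58.7 to 67.0) of longer ones. Part of each gap is barred by the rule, since the outer 100 kb on either side cannot hold a member. Over the part that is open, the density ran the other way, from 6.05 deep sites per Mb in gaps of 200 to 300 kb to 0.642 in gaps over 1000 kb. The longest gap with none lay at chr14:87816751-99439998 and spanned 11623 kb, followed by chr3:41410854-50106163 (8695 kb) and chr5:54495288-63106098 (8611 kb).

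**Figure D3:**
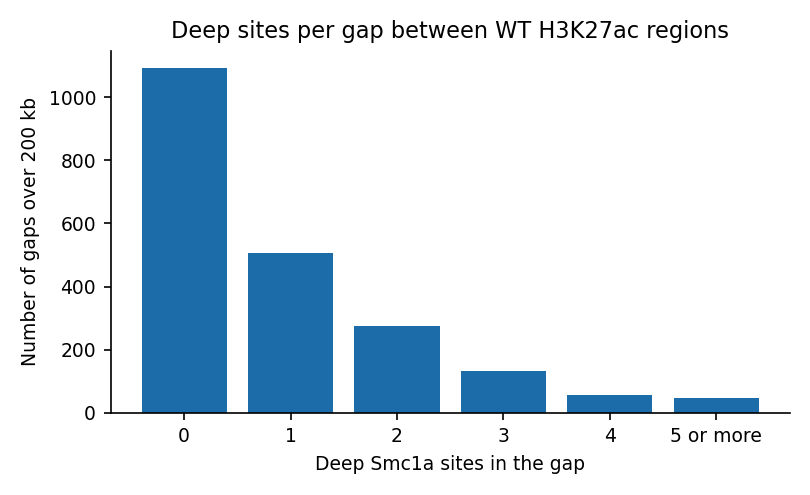
Number of gaps of more than 200 kb between neighbouring WT H3K27ac regions (vertical axis, from 0) by the number of deep Smc1a sites in the gap (horizontal axis). The bar at 0 stands for 1092 gaps and the bar at 5 or more for 46 gaps.

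The gap with most deep sites was chr17:43392420-44569351, of 1177 kb, with 11. Of these, 8 lay in close pairs. The first pair, chr17:43595381-43596153 and chr17:43597293-43598171, was 1139 bp apart and had scores of 209.24 and 560.28 in replicate 1 and of 50.27 and 201.58 in replicate 2. Further pairs were 4352, 1207 and 4351 bp apart, and the other 3 sites had their next Smc1a site 19947 or 53587 bp away. Over the 11 sites the scores ran from 95.04 to 673.99 in replicate 1 (median 209.24) and from 50.27 to 363.60 in replicate 2 (median 116.34). The gap held 3 H3K27ac peaks of KO replicate 1, 3 of KO replicate 2, 4 of WT replicate 1 and none of WT replicate 2. The peaks of all 3 libraries were weak calls. Those of WT replicate 1 had scores of 65.15, 134.44, 82.10 and 97.20 in a list whose median was 268. Those of KO replicate 1 had 63.48, 64.59 and 99.12 (list median 280), and those of KO replicate 2 had 149.25, 68.52 and 121.33 (list median 279).

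**Figure D4:**
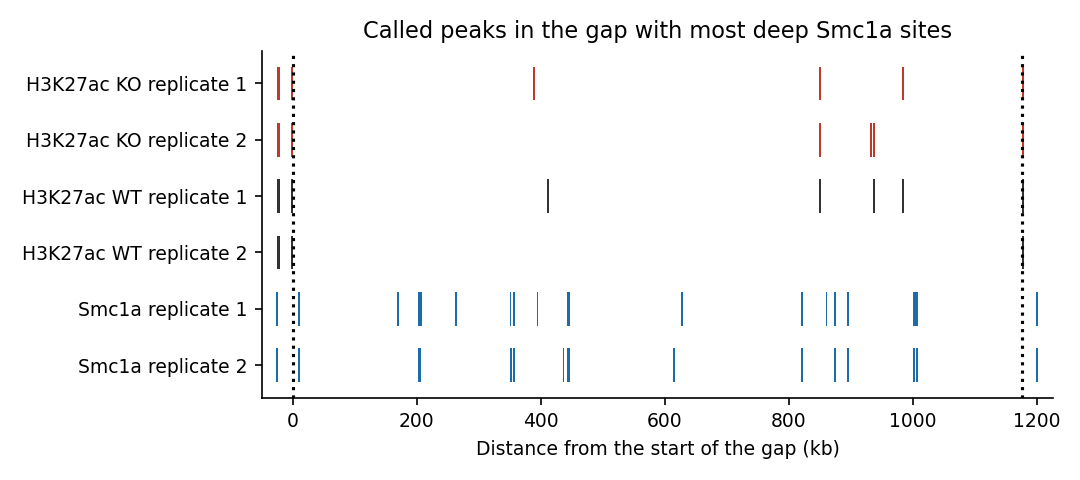
Called peaks of the 2 KO and 2 WT H3K27ac libraries and the 2 Smc1a libraries (rows) along the 1177 kb gap of chromosome 17 that holds 11 deep sites, as distance from its start (horizontal axis, kb, dotted lines at its ends). Boxes are peaks, drawn at least 3 kb wide, and WT replicate 2 has none inside the gap.

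A gap on chromosome 13, chr13:31069440-32760947, held 10 deep sites, with scores of 128.89 to 572.56 in replicate 1 and 100.88 to 304.44 in replicate 2. It held 4, 3, 3 and 1 peaks of KO replicates 1 and 2 and WT replicates 1 and 2. On chromosome 5, the gap chr5:73685222-74650594 held 9 deep sites. Their scores ran from 73.94 to 560.33 in replicate 1, while in replicate 2 the median was 69.47, near the lowest score of that list (50.01). It held 2 peaks of KO replicate 1, 3 of KO replicate 2 and 6 of WT replicate 1, and again none of WT replicate 2.

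How far the deep sites were from acetylation depended on the library asked. Within 100 kb of them lay a peak of KO replicate 1 in 786 cases (40.2%), of KO replicate 2 in 827 (42.3%), of WT replicate 1 in 777 (39.8%) and of WT replicate 2 in 119 (6.09%). Over all 14480 sites the shares were 91.7 and 91.8% for the KO replicates, 91.8% for WT replicate 1 and 87.0% for WT replicate 2. The low shares at deep sites follow in part from the rule, which bars regions called in both WT libraries. The WT peaks that can remain near a member are those without a counterpart in the other WT list, and the shorter list of WT replicate 2 had few of them, so the gap between the WT values is a description of the selection. The most frequent combination of libraries with a peak within 100 kb was both KO libraries with WT replicate 1, at 524 sites (26.8%). No library had a peak within 100 kb of 918 sites (47.0%), and the other 1035 (53.0%) were near a peak of at least 1 list. Without WT replicate 2 the number of deep sites was 1177, and without Smc1a replicate 2, when the peaks of replicate 1 count alone, it was 3603.

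**Figure D5:**
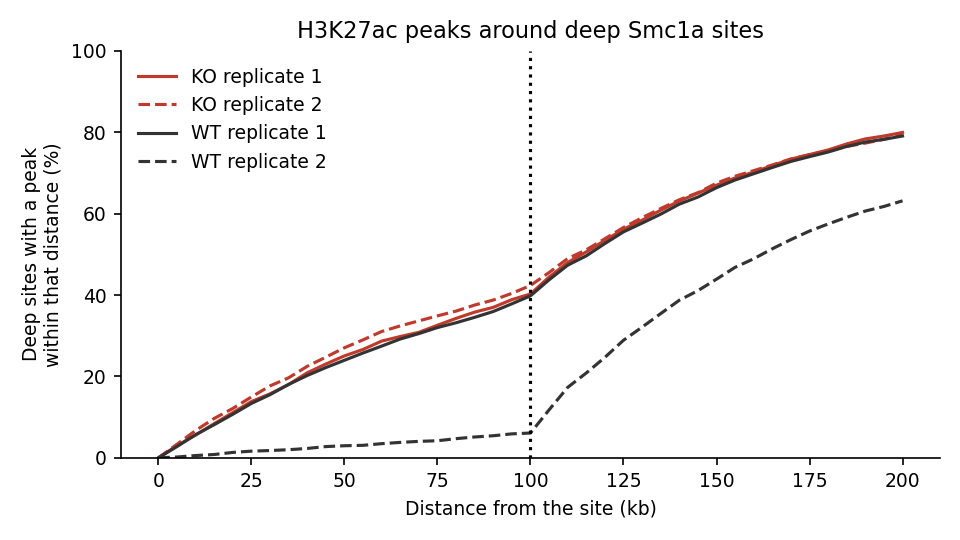
Share of the 1953 deep Smc1a sites (vertical axis, %) with an H3K27ac peak within a given distance (horizontal axis, kb) in KO replicates 1 and 2 (red) and WT replicates 1 and 2 (black). At 100 kb (dotted line) the curves of both KO libraries and of WT replicate 1 stand at 40.2, 42.3 and 39.8%, and that of WT replicate 2 at 6.09%.

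The peaks that remained near deep sites had low scores for their lists, which is a description only, since the rule removed sites near WT regions called in both libraries. The distinct peaks nearest to deep sites within 100 kb numbered 564 in KO replicate 1, 607 in KO replicate 2, 571 in WT replicate 1 and 77 in WT replicate 2. Their median score percentiles within their lists were 23.9 and 26.8 in the KO libraries and 26.2 and 15.7 in the WT libraries. The lowest 25% of each list held 51.4, 46.8, 47.5 and 72.7% of them.

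The 918 sites with no called peak within 100 kb in any list, a subset chosen after seeing the data, had lower scores, were shorter and lay farther from other Smc1a sites than the rest. Their median scores were 200 and 110 in Smc1a replicates 1 and 2, against 251 and 124 for the 1035 deep sites with a peak of at least 1 library within 100 kb. Their median length was 638 bp, against 698 bp, and their median distance to the next Smc1a site 97.2 kb, against 50.1 kb. They also lay farther from WT regions, with medians of 192 and 155 kb.

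To treat the genotypes alike, the autosomal Smc1a sites over 100 kb from any peak were counted for each H3K27ac library by itself. There were 1207 and 1183 such sites by the KO libraries, against 1189 and 1881 by the WT libraries. Both KO values lay close to WT replicate 1 and far below WT replicate 2. The means were 1195 ± 17.0 in KO and 1535 ± 489 in WT (SD, n = 2 each), a KO minus WT difference of -340 that was smaller than the spread between the WT libraries (two-sided exact permutation test, p = 0.667, where 2 libraries against 2 cannot go below 1 in 3). Without WT replicate 2 the difference was 6. With equal numbers of peaks per list the counts were 1297 and 1305 in KO, against 1455 and 1609 in WT, a difference of -231, where both KO values lay below both WT values, which in an exact permutation test gives the smallest p possible.

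The same rule with KO regions in place of WT regions gave 1370 sites. The 2 sets shared 1298 sites, which is 94.7% of the KO set and 66.5% of the WT set. The 655 sites that were deep by WT regions alone are those with a region of both KO libraries within 100 kb, 33.5% of the deep sites (31.5 to 35.7), where such a region lay within 100 kb of 90.4% of all sites. The members were chosen on their distance from WT regions, so this contrast with all sites is a description. Without WT replicate 2, when WT replicate 1 sets the distance, the share was 8.33%.

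A region of both KO libraries came within 10 kb of 84 deep sites (4.30%, 3.49 to 5.29), against 44.1% of all sites. At the closest of them, chr9:107193210-107193873, KO peaks lay 85 and 132 bp away with scores of 70.53 and 248.08, and no WT peak lay within 228557 bp. This Smc1a site had scores of 527.94 and 70.16. At chr11:105224069-105224961, with Smc1a scores of 568.93 and 104.52, KO peaks lay 552 and 524 bp away and the nearest WT peak 179420 bp. The KO scores there were 54.07 and 56.08, close to the minimum of about 50 in each list.

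At the other 3 of the 5 closest sites the KO peaks had a WT replicate 1 peak beside them. At chr12:53933038-53933668, KO peaks lay 597 and 412 bp away and a WT replicate 1 peak 557 bp. At chr12:119231761-119232395 the distances were 765 and 599 bp in KO and 611 bp in WT replicate 1, and at chr10:43790742-43791598 they were 678 and 847 bp in KO and 813 bp in WT replicate 1. The nearest WT replicate 2 peaks to these sites were 75756, 124642 and 73550 bp away. These 3 sites were near acetylation in 3 of the 4 libraries, whichever the genotype.

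Neighbourhoods acetylated in 1 genotype alone were rare. Both KO libraries had a peak within 10 kb, and neither WT library one within 100 kb, at 9 non-overlapped Smc1a sites (0.0622% of the 14480 sites), which by rule are deep. The reverse, with both WT libraries near and neither KO library within 100 kb, was found at 2 sites (0.0138%), which by rule are not deep. Each count moved by more than 1.5 times with single libraries. Leaving out KO replicate 1, KO replicate 2, WT replicate 1 and WT replicate 2 in turn gave 25, 15, 68 and 16 sites near KO peaks alone, against 6, 4, 3 and 10 near WT peaks alone. No test over 4 libraries could reach significance for these counts.

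The 9 sites lay at 7 places. A pair on chromosome 1, chr1:90353030-90353832 and chr1:90361833-90362885, flanked the same KO replicate 1 peak, which scored 141.57, with KO replicate 2 peaks of 150.69 and 159.16. Their Smc1a scores were 968.35 and 336.39 in replicate 1 and 365.31 and 243.67 in replicate 2. A pair on chromosome 12, chr12:26980654-26981252 and chr12:26996242-26997072, shared KO peaks that scored 265.52 and 295.73, with the nearest WT peaks 105269 and 120857 bp off. The site chr1:38824646-38825297 had KO peaks of 97.75 and 538.58, and its nearest WT peak was 101224 bp away, just beyond the limit. The last 2, chr9:15489571-15490082 and chr9:75109894-75110683, had KO peaks that scored 55.48 and 84.93, and 110.00 and 58.46. None of the KO replicate 1 peaks beside these sites scored above the median of its list. Of the KO replicate 2 peaks, those beside chr1:38824646-38825297 and the chromosome 12 pair did.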

How the data were processed

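H3K27ac and Smc1a were measured by chromatin immunoprecipitation and sequencing. The submitters' processing notes name the build mm9 and the aligner Bowtie, version 0.12.8. The deposited lists give start, end and score of each peak of 1 library, with MACS peak names. The score is the authors' own value, and neither its scale nor the caller's settings or input could be read from the labels or the lists. The 5 input libraries were not analysed here.

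Peaks that overlapped or touched were merged with Python 3.11.15, numpy 2.4.6 and pandas 2.3.3, an overlap was at least 1 bp, and distances are the bases between edges. A site's score is its highest peak score per list. Coordinates are mm9, counted from 1. Gap distances exclude the regions themselves. Shares have Wilson 95% intervals (scipy 1.17.1) and densities exact Poisson ones. The interval steps were tested on 3000 simulated intervals against a direct search and on 20 merges against bedtools 2.31.1, with 0 errors. No 2 libraries of a target and genotype shared an identical peak.

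Members, comparisons and lists were chosen with earlier results of these data known. Named regions were the 5 farthest sites, the 5 with the highest mean score percentile, the 5 nearest to a region of both KO libraries, the 3 gaps with most members and the 3 sites on either side of the limit. The sites near peaks of 1 genotype alone, the longest empty gaps and the 918 sites were chosen after seeing values. The planned gene lists and CTCF motif were not run, since the gene table and promoter sequences at hand are of GRCm38 and the peaks of mm9. Alternatives were stricter scores, equal peak numbers, a 50% overlap, limits of 50000 and 200000 bp, each library left out, and a replicate block.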

Additional observations from a re-analysis of the deposited data

How the results depend on the processing

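Of 86 alternatives over 8 results, 42 gave a value within the range set for it, 43 moved it past that range and 1 reversed it; no direction of a score, width or agreement difference (deep sites minus all sites) turned. Leaving out 1 library at a time gave 1177 to 3603 deep sites, -7.86 to -6.15 percentile points for the score, -127 to -107 bp for peak width, 33.2 to 82.9 kb to the next Smc1a site, -6.69 to -3.83 points for replicate agreement, 0.882 to 2.50 sites per Mb, and 8.33 to 42.4% of deep sites with KO acetylation within 100 kb. The KO minus WT difference in far sites ran from -686 to 6, and 6, without WT replicate 2, was the reversal. A limit of 50000 bp gave 3762 sites, -3.64 points, -84.8 bp, 46.2 kb and 64.6% with KO acetylation, and one of 200000 bp gave 783 sites, -9.03 points, -137.5 bp, 92.2 kb and 27.8%. The upper 75% of each list gave -5.36 points, -103 bp, 76.0 kb and -1.10 points of agreement. Equal numbers of peaks gave -6.10 points, -100.5 bp, -1.99 points of agreement and 27.0%. Distance from any WT peak gave 1108 sites. Requiring no peak of any library within 100 kb, added after seeing the data, gave 918 sites, -9.59 points, -137.5 bp and 97.2 kb. The cause of these shifts was not tested, beyond the fewer or more sites that each alternative admits.

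The genotypes share replicate numbers, with nothing in the labels to say that a number pairs libraries. With the replicate number as a block (replicate block) the difference stayed -340 (exact sign-flip permutation p = 1, smallest possible 0.5). The planned motif and gene list alternatives were not run, nor was replicate agreement with a Smc1a library left out, which leaves nothing to compare. Missing depth limits every statement about a peak that was not called.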
